A study of Mus musculus with 15 samples.

Results

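MicroRNAs (miRNAs) are short RNAs cut from the 5p or 3p arm of hairpin transcripts, and 5 of the 248 mature miRNAs listed for mouse Kupffer cells are described here: mmu-miR-188-5p, mmu-miR-138-5p, mmu-miR-149-5p, mmu-miR-532-5p and mmu-miR-184-3p, named without the species prefix from here on. They were chosen because their difference between ob/ob and wt libraries varied most between 14 and 9 weeks of age. By size alone other miRNAs changed more, as the ranks given below show. That choice used their levels in all 15 libraries, so their values are given as a description, with no test. Small RNA had been sequenced from ob/ob mice at 14 weeks (n = 4), wt mice at 14 weeks (n = 4), ob/ob mice at 9 weeks (n = 3) and wt mice at 9 weeks (n = 4). The wt mice carry the strain label C57BL/6J. The ob/ob mice carry only the strain label ob/ob, a line that lacks functional leptin and becomes obese, and the sources used here do not give their background strain, the sex of the animals or any pooling. No treatment is named for any group.

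Kupffer cells are the resident macrophages of the liver. A miRNA guides a protein complex to partly matching sites in messenger RNAs, which lowers the stability and translation of those messages, and the bases near its 5′ end, called the seed, do most of the pairing. The arms of one hairpin are made from the same transcript, and hairpins close together on one strand are often made together, while the amount of each mature arm also depends on how it is cut, loaded and degraded.

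The mature sequences are shown because they do not form a seed family: none of those printed shares its seed with another listed miRNA that has a RefSeq mature sequence. They are from RefSeq, with positions on GRCm38.p6, and the capitals mark the seed (bases 2 to 8). miR-532-5p is named only, and miR-532-3p, the other arm of its hairpin, is shown for the comparison made further on.
miR-188-5p: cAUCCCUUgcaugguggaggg
miR-138-5p: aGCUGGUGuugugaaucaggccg
miR-149-5p: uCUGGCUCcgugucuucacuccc
miR-184-3p: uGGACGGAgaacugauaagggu
miR-532-3p: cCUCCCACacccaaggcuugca

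These miRNAs come from hairpins on several chromosomes. miR-188-5p lies at chrX:7248031-7248051 on the minus strand and miR-532-3p at chrX:7248419-7248440 on the same strand. Their hairpins, Mir188 and Mir532, are 345 bases apart within introns of Clcn5, which codes for a chloride and proton exchanger of endosomes. miR-149-5p lies at chr1:92850381-92850403 on the plus strand, in an intron of Gpc1, the gene of the cell-surface proteoglycan glypican-1. miR-138-5p can be made from 2 hairpins with the same mature sequence, at chr8:94324312-94324334 (plus strand, in the long noncoding RNA gene C78859) and chr9:122682898-122682920 (plus strand, overlapping the pseudogene Gm47135), and its reads cannot be divided between them. miR-184-3p lies at chr9:89802263-89802284 on the minus strand, with no annotated host gene. The GC content was 61.9% in miR-188-5p, 56.5% in miR-138-5p, 60.9% in miR-149-5p and 50.0% in miR-184-3p, against a median of 45.5% over the 167 tested miRNAs with a RefSeq mature sequence.

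Levels are in RPM, reads per 1000000 reads of the library, as deposited. The smallest step between values implied depths of 44.0 to 98.1 M reads (M, 1000000) in ob/ob and 9.08 to 39.0 M in wt libraries at 14 weeks (two-sided exact permutation p = 0.0286, the smallest this design can give), and 25.9 to 33.9 M in ob/ob and 13.4 to 22.8 M in wt libraries at 9 weeks (exact permutation p = 0.0571, the smallest possible for 3 against 4). The 248 listed miRNAs summed to 272978 to 333502 RPM in ob/ob and 147387 to 353829 RPM in wt at 14 weeks (exact permutation p = 0.83), and to 230785 to 250422 RPM in ob/ob and 297668 to 358621 RPM in wt at 9 weeks (exact permutation p = 0.0571). The wt replicate 1 of 14 weeks stood apart, with the sum of 147387 RPM and the depth of 9.08 M reads. All libraries of 9 weeks were in sequencing lane 2, and at 14 weeks lane 1 held replicates 1 and 2 of each genotype and lane 2 held replicates 3 and 4. Lane and age are therefore partly confounded. Because the sums differed, each comparison is also given after median-ratio rescaling, which sets the libraries of an age to a common level by 1 factor per library (the median, over miRNAs, of the value divided by the geometric mean at that age).

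miR-188-5p, known in mouse bone marrow stromal cells for steering the choice between the bone and fat cell lineages, was low in every ob/ob library of 9 weeks and in 2 of 4 wt libraries of 14 weeks. At 14 weeks it was at 9.92, 15.5, 12.5 and 10.5 RPM in ob/ob replicates 1 to 4, against 2.64, 13.4, 13.9 and 5.65 RPM in wt replicates 1 to 4. At 9 weeks it was at 3.21, 4.67 and 1.89 RPM in ob/ob replicates 1 to 3, against 12.3, 22.1, 17.7 and 11.3 RPM in wt replicates 1 to 4. The genotypes overlapped at 14 weeks, where wt replicates 1 and 4 lay below all ob/ob libraries and wt replicates 2 and 3 within their range, and they did not overlap at 9 weeks. Group means were 12.1 ± 2.53 RPM (SD, n = 4) in ob/ob and 8.90 ± 5.62 (n = 4) in wt at 14 weeks, and 3.26 ± 1.39 (n = 3) in ob/ob and 15.8 ± 5.05 (n = 4) in wt at 9 weeks. In order from the highest mean, wt at 9 weeks, ob/ob at 14 weeks, wt at 14 weeks and ob/ob at 9 weeks followed each other, and the ranges of each neighbouring pair overlapped. The fewest reads behind a value were 24, in wt replicate 1 of 14 weeks, which gives 1.69 to 3.93 RPM as the exact 95% Poisson interval for counting error only.

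miR-138-5p, studied in rat neurons as a repressor of dendritic spine growth, was the least abundant of the 5 and had the same shape. Its level at 14 weeks was 5.20, 5.52, 4.29 and 3.67 RPM in ob/ob replicates 1 to 4, against 2.31, 5.92, 4.26 and 1.83 RPM in wt replicates 1 to 4. Its level at 9 weeks was 1.95, 1.58 and 1.15 RPM in ob/ob replicates 1 to 3, against 4.52, 5.36, 8.03 and 4.13 RPM in wt replicates 1 to 4. Again wt replicates 1 and 4 of 14 weeks were below all ob/ob libraries of that age, and all ob/ob libraries of 9 weeks were below all wt libraries of 9 weeks. The group means were 4.67 ± 0.85 RPM in ob/ob and 3.58 ± 1.88 in wt at 14 weeks (SD, n = 4 each), and 1.56 ± 0.40 (n = 3) in ob/ob and 5.51 ± 1.76 (n = 4) in wt at 9 weeks. In wt replicate 1 of 14 weeks the value rests on 21 reads, with an exact 95% Poisson interval of 1.43 to 3.54 RPM.

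miR-149-5p, the product of the Gpc1 intron, differed less between the wt libraries. At 14 weeks it was at 19.5, 19.8, 14.5 and 10.4 RPM in ob/ob replicates 1 to 4, against 9.47, 19.0, 18.6 and 11.6 RPM in wt replicates 1 to 4. At 9 weeks it was at 9.07, 6.22 and 6.93 RPM in ob/ob replicates 1 to 3, against 17.0, 24.3, 17.5 and 12.7 RPM in wt replicates 1 to 4. The ob/ob libraries of 9 weeks were lowest as a group, below every other library, and at 14 weeks the genotypes overlapped over most of their range. The means were 16.1 ± 4.48 RPM in ob/ob and 14.7 ± 4.84 in wt at 14 weeks (SD, n = 4 each), and 7.41 ± 1.48 (n = 3) in ob/ob and 17.9 ± 4.78 (n = 4) in wt at 9 weeks.

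miR-532-5p, the most abundant of the 5, was between 523.7 and 762.1 RPM in 11 of 15 libraries. At 14 weeks it was at 543.6, 523.7, 590.7 and 548.1 RPM in ob/ob replicates 1 to 4, against 340.0, 590.2, 589.0 and 601.9 RPM in wt replicates 1 to 4. At 9 weeks it was at 334.7, 400.9 and 259.9 RPM in ob/ob replicates 1 to 3, against 762.1, 573.3, 551.8 and 617.0 RPM in wt replicates 1 to 4. The low libraries were the 3 of ob/ob at 9 weeks and wt replicate 1 of 14 weeks, which are also the 4 libraries with the lowest sums over all listed miRNAs. After rescaling, wt replicate 1 of 14 weeks was at 588.7 rescaled RPM, the highest of its age, and the ob/ob libraries of 9 weeks at 403.0, 459.7 and 326.1. The fewest reads behind a value were 3087, in wt replicate 1 of 14 weeks.

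miR-184-3p, known from the cornea and lens, ran the other way. Its level at 14 weeks was 41.4, 32.8, 66.6 and 54.1 RPM in ob/ob replicates 1 to 4, against 58.8, 29.5, 23.0 and 65.7 RPM in wt replicates 1 to 4. Its level at 9 weeks was 66.7, 123.2 and 80.1 RPM in ob/ob replicates 1 to 3, against 41.1, 18.2, 19.5 and 31.2 RPM in wt replicates 1 to 4. All ob/ob libraries of 9 weeks lay above all wt libraries of 9 weeks, and at 14 weeks wt replicates 1 and 4 were within the ob/ob range while wt replicates 2 and 3 were below them. The means were 48.7 ± 14.8 RPM in ob/ob and 44.3 ± 21.2 in wt at 14 weeks (SD, n = 4 each), and 90.0 ± 29.5 (n = 3) in ob/ob and 27.5 ± 10.8 (n = 4) in wt at 9 weeks. The smallest value rested on 244 reads.

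**Figure D1:**
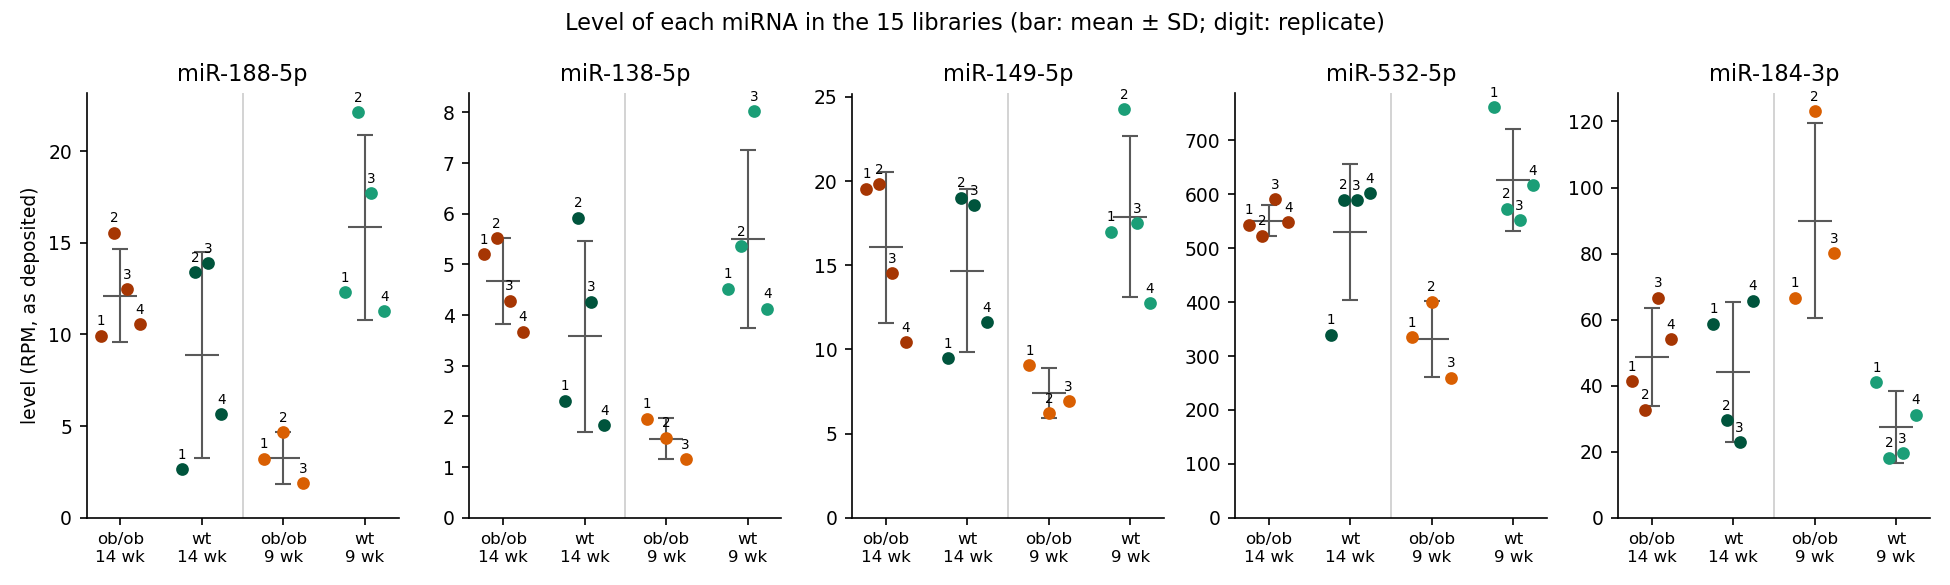
Level of each of the 5 miRNAs in RPM as deposited, in ob/ob and wt libraries at 14 weeks (left of the grey line) and at 9 weeks (right of it). Each point is 1 library with its replicate number, and bars are the mean ± SD. At 9 weeks the ob/ob points lie below all wt points in the first 4 panels and above them for miR-184-3p, and at 14 weeks the genotypes overlap in every panel.

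As deposited, the log2(RPM + 0.5) difference of ob/ob minus wt was nearer 0 at 14 weeks than at 9 weeks in all 5. For miR-188-5p it was 0.66 ± 0.48 (SE) at 14 weeks and -2.14 ± 0.34 at 9 weeks. For miR-138-5p it was 0.44 ± 0.35 at 14 weeks and -1.52 ± 0.28 at 9 weeks. For miR-149-5p it was 0.14 ± 0.32 at 14 weeks and -1.20 ± 0.26 at 9 weeks. The listed miRNAs in general were shifted the same way, with a median difference of 0.20 over the 171 tested at 14 weeks and -0.51 over the 179 tested at 9 weeks, and the difference of miR-532-5p, 0.09 ± 0.27 at 14 weeks and -0.93 ± 0.22 at 9 weeks, was the one closest to these medians at 9 weeks. miR-184-3p was at 0.22 ± 0.39 at 14 weeks and 1.72 ± 0.34 at 9 weeks, opposite to the median at 9 weeks. Single libraries weighed on the differences at 14 weeks: with each library left out in turn, that of miR-188-5p ranged over 0.22 to 0.95, with 0.22 without wt replicate 1 of 14 weeks. The range was 0.21 (without wt replicate 4) to 0.70 (without wt replicate 2) for miR-138-5p. It crossed 0 for miR-149-5p (-0.04 to 0.33) and miR-532-5p (-0.11 to 0.17), whose lowest values were without wt replicate 1, and for miR-184-3p (-0.04 to 0.45), whose lowest was without wt replicate 3.

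Rescaling, which sets the median of all tested miRNAs near 0 at both ages, brought the first 4 differences closer to 0 at 9 weeks and took that of miR-184-3p further from it. The rescaled difference of miR-188-5p was 0.46 ± 0.35 at 14 weeks and -1.68 ± 0.35 at 9 weeks. That of miR-138-5p was 0.25 ± 0.30 at 14 weeks and -1.10 ± 0.30 at 9 weeks. For miR-149-5p and miR-532-5p the rescaled differences at 9 weeks were -0.71 ± 0.26 and -0.42 ± 0.18, and at 14 weeks their sign turned, to -0.07 ± 0.23 for miR-149-5p and -0.12 ± 0.16 for miR-532-5p. The rescaled difference of miR-184-3p was 0.00 ± 0.50 at 14 weeks and 2.23 ± 0.31 at 9 weeks. A correction for GC content, added to the rescaling, gave 1.16 at 14 weeks and -1.22 at 9 weeks for miR-188-5p. It gave 0.71 at 14 weeks and -0.80 at 9 weeks for miR-138-5p, and 0.58 and -0.28 for miR-149-5p. With that correction the differences of miR-188-5p, miR-138-5p and miR-149-5p were thus not small at 14 weeks beside those at 9 weeks.

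**Figure D2:**
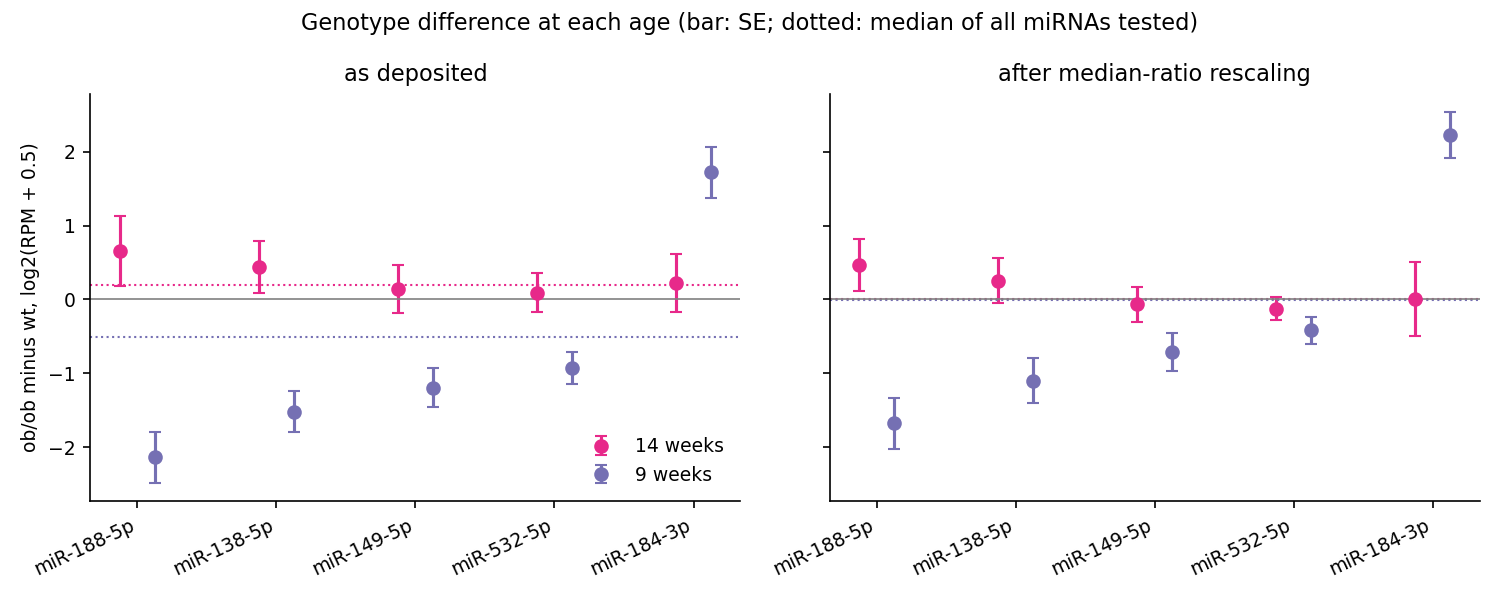
Difference of ob/ob minus wt in log2(RPM + 0.5) at 14 and at 9 weeks for the 5 miRNAs, as deposited (left) and after rescaling (right). Points are fitted differences, bars are standard errors, and dotted lines are the median of all tested miRNAs at that age (0.20 and -0.51 as deposited). The distance between the 2 points of a miRNA is widest for miR-188-5p and, after rescaling, for miR-184-3p.

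Since these contrasts chose the miRNAs, the calls of limma (adjusted p under 0.05) are listed only to place them among all others. At 14 weeks 15.2% of 171 tested miRNAs were called as deposited and 28.6% of 168 after rescaling, with 0 of the 5 among them on either scale. At 9 weeks 37.4% of 179 were called as deposited, with all 5 among them, and 21.5% of 177 after rescaling, with 3 of the 5 (miR-188-5p, miR-138-5p and miR-184-3p). Groups that did not overlap made up 27.5% of the tested miRNAs at 14 weeks and 48.6% at 9 weeks as deposited, and 29.2% at 14 weeks and 40.7% at 9 weeks after rescaling. On both scales the genotypes overlapped in all of the 5 at 14 weeks and in 0 of the 5 at 9 weeks.

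The change of the genotype difference between the ages, 14 weeks minus 9 weeks, was 2.80 ± 0.64 (SE, log2) for miR-188-5p, 1.96 ± 0.46 for miR-138-5p, 1.34 ± 0.43 for miR-149-5p, 1.02 ± 0.33 for miR-532-5p and -1.50 ± 0.55 for miR-184-3p as deposited. It was above 0 in 163 of the 187 miRNAs tested (87.2%), around a median of 0.68. By unadjusted p the 5 ranked 1, 2, 8, 9 and 22 of 187 in that order. By size of the change in either direction they ranked 6, 10, 22, 49 and 14. After rescaling the median was -0.02. The values were then 2.14 ± 0.51 for miR-188-5p, 1.35 ± 0.43 for miR-138-5p, 0.64 ± 0.34 for miR-149-5p, 0.29 ± 0.21 for miR-532-5p and -2.22 ± 0.66 for miR-184-3p. The ranks by unadjusted p were 1, 5, 22, 53 and 3. The contrast passed the adjusted threshold for 0% of the 187 miRNAs on either scale (limma, 48 at an unadjusted p under 0.05 as deposited and 16 after rescaling).

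Among miRNAs with a contrast above 0, those just outside the choice as deposited were miR-19a-3p at 1.97 ± 0.47 (rank 3), miR-34c-5p at 1.38 ± 0.37 (rank 4) and miR-29b-3p at 1.37 ± 0.40 (rank 5), all with smaller p than miR-149-5p and miR-532-5p. Below 0 the next after miR-184-3p were miR-146a-5p at -1.19 ± 0.68 (rank 69), miR-122-5p at -1.46 ± 0.84 (rank 71) and miR-146b-5p at -1.08 ± 0.72 (rank 81). After rescaling, miR-375-3p ranked 2 with -2.34 ± 0.58, but it was listed at 0 in all 4 ob/ob libraries of 14 weeks and averaged at most 0.78 RPM in the other groups. miR-142a-3p, with 3.81 ± 1.19 and rank 4 after rescaling, averaged 13.5 RPM in ob/ob at 14 weeks and at most 0.11 RPM in each other group. The others just outside on that scale were miR-19a-3p (rank 7) and miR-34c-5p (rank 8) above 0 and miR-191-3p (rank 6) and miR-676-3p (rank 9) below 0.

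**Figure D3:**
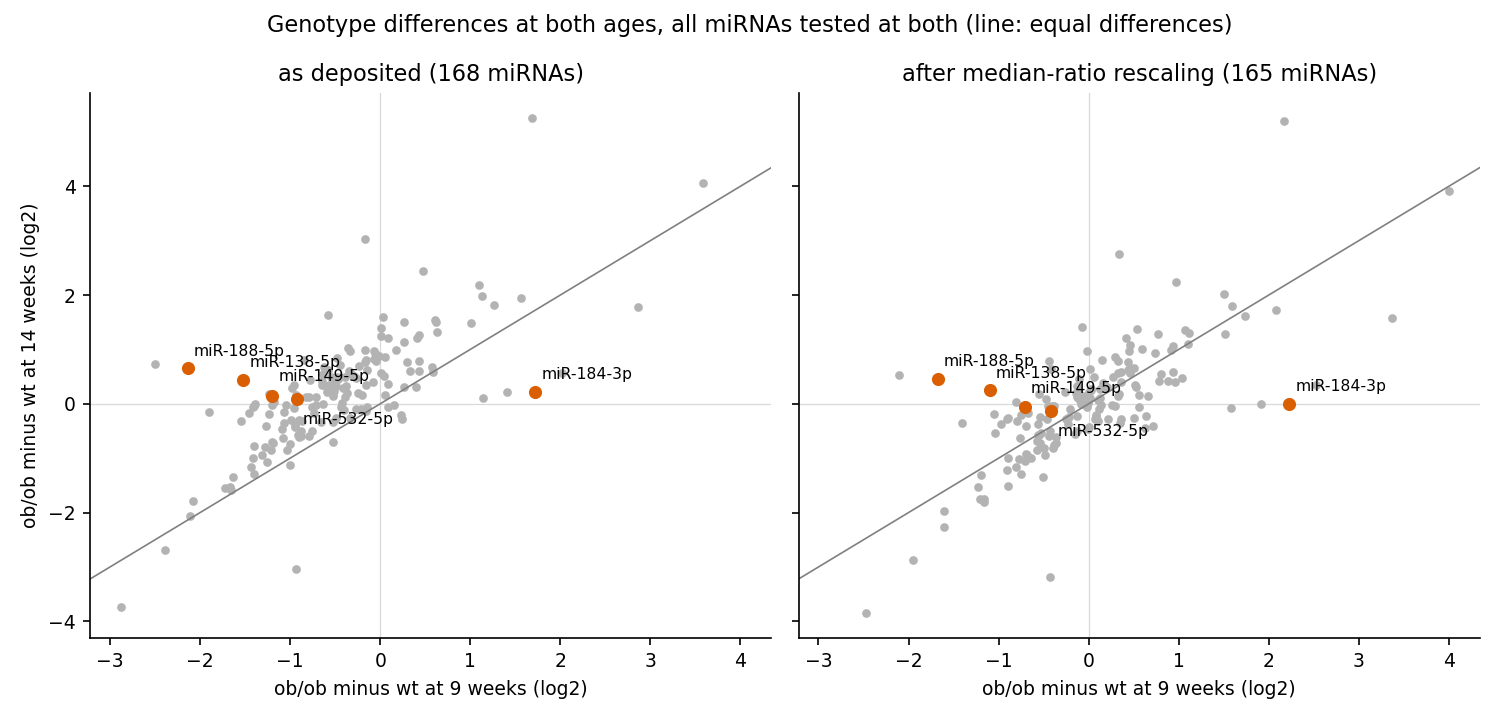
Difference of ob/ob minus wt in log2(RPM + 0.5) at 14 weeks (vertical axis) against 9 weeks (horizontal axis) for all miRNAs tested at both ages, as deposited (168 miRNAs, left) and after rescaling (165 miRNAs, right). Grey points are single miRNAs, orange points the 5 described here, and the line marks equal differences. As deposited, most points lie above the line, and after rescaling they lie on both sides of it, with miR-188-5p above and miR-184-3p below on both scales.

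Which genotype moved between the ages was read from the same fit of all 15 libraries. The values of the 2 ages come from separate tables, and the sources used here do not say how these were scaled to each other. As deposited, miR-188-5p was 1.80 ± 0.47 (SE, log2) higher at 14 than at 9 weeks in ob/ob and differed by -1.001 ± 0.43 in wt. miR-138-5p differed by 1.33 ± 0.34 in ob/ob and -0.63 ± 0.32 in wt, and miR-149-5p by 1.04 ± 0.31 in ob/ob and -0.30 ± 0.29 in wt. For miR-532-5p the differences were 0.75 ± 0.24 in ob/ob and -0.27 ± 0.22 in wt, beside medians over all 187 miRNAs of 0.33 in ob/ob and -0.27 in wt. miR-184-3p differed by -0.88 ± 0.41 in ob/ob and 0.62 ± 0.38 in wt. By fitted value, the ob/ob part was the larger one in each of the 5 contrasts. For miR-184-3p the parts of ob/ob and wt were close in size beside their SEs. Whether the parts differ in size was not tested, and as deposited it depends on how the ages were scaled to each other.

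After rescaling over all 15 libraries, where the medians were -0.07 in ob/ob and -0.03 in wt, the ob/ob part was again the larger by fitted value. miR-188-5p then differed between 14 and 9 weeks by 1.39 ± 0.37 in ob/ob and -0.76 ± 0.35 in wt, miR-138-5p by 0.96 ± 0.32 in ob/ob and -0.40 ± 0.29 in wt, and miR-184-3p by -1.33 ± 0.48 in ob/ob and 0.89 ± 0.45 in wt. The wt values of miR-149-5p (-0.04 ± 0.24) and miR-532-5p (0.00 ± 0.13) were near 0, beside 0.61 ± 0.25 and 0.30 ± 0.14 in ob/ob.

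The ob/ob libraries of 14 and 9 weeks did not overlap in any of the 5 as deposited, where 23% of all tested miRNAs did not overlap, and in 3 of the 5 after rescaling (miR-188-5p, miR-138-5p and miR-184-3p), where 11.2% did not. For miR-184-3p as deposited this rested on a gap of hundredths of an RPM, between ob/ob replicate 3 of 14 weeks and ob/ob replicate 1 of 9 weeks. The wt libraries of 14 and 9 weeks overlapped in all of the 5 on both scales, beside 8.02% of all tested miRNAs without overlap as deposited and 3.19% after rescaling. In the wt groups the same replicate numbers stood low or high at both ages, although the labels do not tie replicates of different ages to each other. Replicates 1 and 4 were the lower pair of their group in miR-188-5p, miR-138-5p and miR-149-5p and the higher pair in miR-184-3p, at 14 weeks and at 9 weeks. At 14 weeks this pairing crosses the lanes, since replicates 1 and 2 shared lane 1. After rescaling it held for miR-188-5p and miR-184-3p at both ages, while wt replicate 1 of 14 weeks no longer stood apart in miR-138-5p (4.004 rescaled RPM, beside 5.14, 3.83 and 1.65 in wt replicates 2 to 4) or in miR-149-5p (16.4 rescaled RPM, beside 16.5, 16.7 and 10.5).

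Within the lanes of 14 weeks the 5 contrasts kept their sign. For miR-188-5p the contrast of the ages was 3.11 with the 14-week libraries of lane 1 only and 2.49 with those of lane 2 only. For miR-184-3p it was -1.90 with lane 1 only and -1.11 with lane 2 only. Leaving out any 1 library gave 2.36 to 3.09 for miR-188-5p, with the lowest value without wt replicate 1 of 14 weeks, and -1.77 to -1.25 for miR-184-3p.

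Levels relative to each other within a library do not depend on the scaling of the library. The hairpins of miR-188-5p and miR-532-5p are neighbours, yet miR-188-5p per 1000 reads of miR-532-5p was not constant. At 14 weeks this ratio was 18.3, 29.7, 21.1 and 19.2 in ob/ob replicates 1 to 4, against 7.77, 22.7, 23.6 and 9.39 in wt replicates 1 to 4. At 9 weeks it was 9.60, 11.7 and 7.26 in ob/ob replicates 1 to 3, against 16.1, 38.6, 32.1 and 18.3 in wt replicates 1 to 4. The ratio thus did not overlap between the genotypes at 9 weeks and overlapped at 14 weeks, where wt replicates 1 and 4 were again the low pair. miR-184-3p per 1000 reads of miR-532-5p was 76.2, 62.6, 113 and 98.7 in ob/ob, against 173, 50.0, 39.0 and 109 in wt at 14 weeks, and 199, 307 and 308 in ob/ob, against 53.9, 31.7, 35.3 and 50.6 in wt at 9 weeks. The genotypes did not overlap in this ratio at 9 weeks and overlapped at 14 weeks. Since these miRNAs were chosen for their differences at the 2 ages, the ratios between them are a description and are no evidence on the scaling. For miR-149-5p the ratio to miR-532-5p overlapped between the genotypes at both ages, at 19.0 to 37.8 in ob/ob and 19.3 to 32.2 in wt at 14 weeks and 15.5 to 27.1 in ob/ob and 20.6 to 42.4 in wt at 9 weeks.

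The other arm of a hairpin was not used in choosing the 5, and only miR-532-3p was abundant enough to test. At 14 weeks it was at 14.1, 7.70, 9.25 and 6.46 RPM in ob/ob replicates 1 to 4, against 12.005, 18.6, 13.5 and 12.3 RPM in wt replicates 1 to 4. At 9 weeks it was at 8.29, 10.1 and 6.84 RPM in ob/ob replicates 1 to 3, against 15.6, 19.2, 15.6 and 13.2 RPM in wt replicates 1 to 4. Of the ob/ob libraries of 14 weeks, 3 of 4 were below all wt libraries of that age, and at 9 weeks the genotypes did not overlap. At 9 weeks miR-532-3p was lower in ob/ob by limma, with a log2 difference of -0.88 ± 0.22 (SE, adjusted p = 0.0159, lower in 3 of 3 ob/ob libraries), a direction in which 32.4% of all tested miRNAs were called. This call did not hold after rescaling, at -0.40 ± 0.20 (limma adjusted p = 0.193), nor with a GC correction added, at 0.11 ± 0.18 (limma adjusted p = 0.708).

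At 14 weeks the difference of miR-532-3p was -0.60 ± 0.29 (limma adjusted p = 0.188) as deposited and -0.81 ± 0.27 (limma adjusted p = 0.04999991, just under the threshold, beside 13.1% of tested miRNAs called lower) after rescaling, and it was -0.04 once GC was corrected too. Its genotype difference was not shown to vary between the ages, at 0.28 ± 0.37 as deposited (limma adjusted p = 0.610) and -0.41 ± 0.34 after rescaling (limma adjusted p = 0.664). Reads of miR-532-5p per read of miR-532-3p were 38.6, 68.0, 63.8 and 84.8 in ob/ob replicates 1 to 4, against 28.3, 31.8, 43.6 and 48.8 in wt replicates 1 to 4 at 14 weeks. At 9 weeks they were 40.4, 39.8 and 38.0 in ob/ob replicates 1 to 3, against 48.9, 29.8, 35.3 and 46.9 in wt replicates 1 to 4. So 3 of 4 ob/ob libraries of 14 weeks had a higher share of the 5p arm than any other library, and the ob/ob libraries of 9 weeks lay within the wt range. The minor arms miR-188-3p (0 to 0.150 RPM, at most 6 reads) and miR-184-5p (0 to 0.224 RPM, at most 8 reads) were too rare to test, and miR-149-3p and the 3p arms of the miR-138 hairpins were not among the listed miRNAs.

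**Figure D4:**
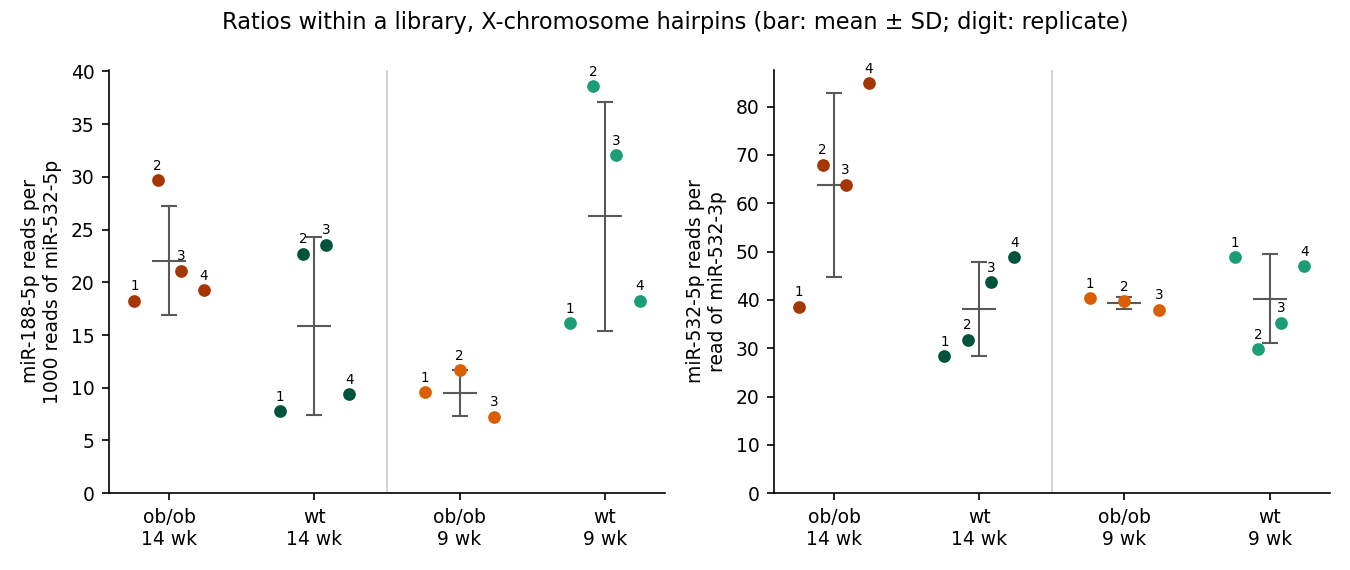
Ratios of reads within a library for the neighbouring hairpins on the X chromosome: miR-188-5p per 1000 reads of miR-532-5p (left) and miR-532-5p per read of miR-532-3p (right), at 14 weeks (left of the grey line) and 9 weeks (right of it). Points are libraries with their replicate number, and bars are the mean ± SD. On the left the ob/ob points of 9 weeks (7.26 to 11.7) lie below the wt points of 9 weeks (16.1 to 38.6), and on the right 3 of 4 ob/ob points of 14 weeks (63.8 to 84.8) lie above all others.

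The 5 miRNAs were also compared by their course over the 15 libraries. They were chosen by a contrast of these same libraries, so their likeness to each other, and the opposite course of miR-184-3p, are partly built in. The r values between them are therefore a description. Correlations of log2(RPM + 0.5) over the 15 libraries, which share the scaling and the depth of each library, are given as deposited and then after rescaling over all 15. miR-188-5p and miR-138-5p had a Pearson's r of 0.91 as deposited and 0.82 rescaled, and miR-138-5p and miR-149-5p 0.89 as deposited and 0.81 rescaled. For miR-532-5p the r to miR-188-5p was 0.85 as deposited and 0.48 rescaled, that to miR-138-5p 0.72 and 0.45, and that to miR-149-5p 0.72 and 0.32. miR-184-3p ran against miR-188-5p, at -0.78 as deposited and -0.86 rescaled, and against miR-138-5p at -0.83 and -0.74.

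**Figure D5:**
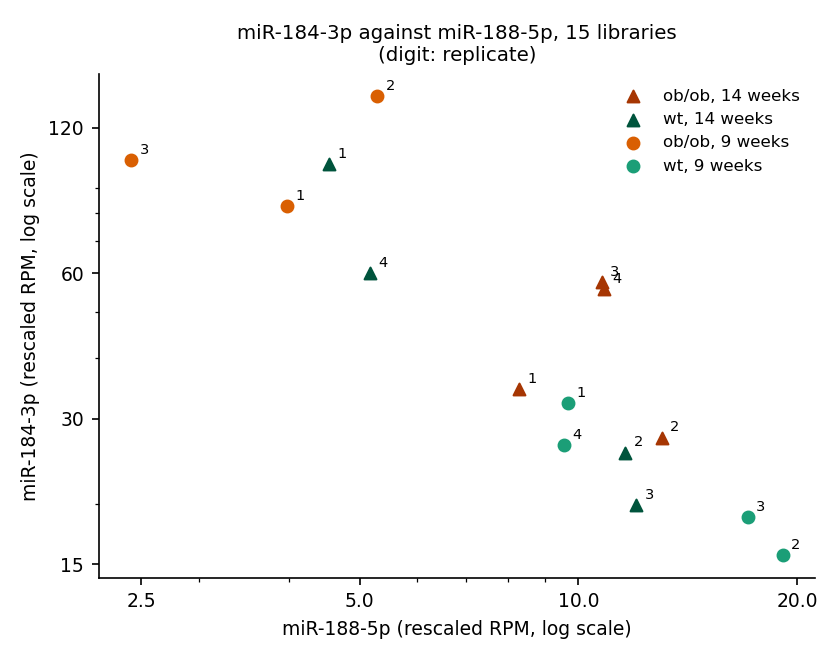
Level of miR-184-3p against that of miR-188-5p in the 15 libraries, in RPM rescaled over all 15 libraries, on log axes, with triangles for 14 weeks and circles for 9 weeks. Digits are replicate numbers. The ob/ob libraries of 9 weeks and wt replicates 1 and 4 of 14 weeks lie at the upper left, with little miR-188-5p and much miR-184-3p.

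The miRNAs most like miR-188-5p as deposited were let-7i-3p (r of 0.93), miR-872-3p (0.91) and miR-138-5p (0.91). miR-872-3p also led the likeness to miR-149-5p (0.91) and was the third for miR-138-5p (0.88). It was at 35.1, 42.2, 30.4 and 18.0 RPM in ob/ob, against 15.97, 59.2, 57.2 and 22.3 RPM in wt at 14 weeks, and at 16.3, 17.7 and 6.76 RPM in ob/ob, against 47.8, 67.4, 54.3 and 31.3 RPM in wt at 9 weeks. The 6 lowest libraries were the 3 ob/ob ones of 9 weeks, wt replicates 1 and 4 of 14 weeks and ob/ob replicate 4 of 14 weeks. For miR-532-5p the most alike were miR-511-3p (0.93), made from within Mrc1, which codes for the mannose receptor of macrophages, then miR-140-3p (0.90) and miR-455-5p (0.89), with values of 0.75, 0.57 and 0.62 after rescaling.

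miR-184-3p was most like miR-122-5p (r of 0.86 as deposited and 0.91 rescaled), the main miRNA of hepatocytes, then miR-146a-5p (0.84 and 0.89) and miR-146b-5p (0.82 and 0.84), which inflammatory signalling through NF-kappaB induces in macrophages. miR-122-5p was at 48.8, 36.9, 54.3 and 79.4 RPM in ob/ob, against 100.7, 20.2, 15.2 and 50.6 RPM in wt at 14 weeks, and at 113, 158 and 228 RPM in ob/ob, against 73.1, 18.4, 24.2 and 69.4 RPM in wt at 9 weeks. miR-146a-5p was at 1365, 1063, 1781 and 1577 RPM in ob/ob, against 1301, 756, 911 and 2513 RPM in wt at 14 weeks, and at 2246, 4904 and 4088 RPM in ob/ob, against 2172, 679, 824 and 2659 RPM in wt at 9 weeks. In all 3 miRNAs wt replicates 1 and 4 were the high pair of their group at both ages, as they were in miR-184-3p. These neighbours were themselves picked by their likeness over these libraries.

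The sum of the hepatocyte markers and the level of the erythroid marker were higher in ob/ob at both ages. Other marker lists had some or none of their members called. The part of the markers in the results was not tested. The 4 hepatocyte miRNAs (miR-122-5p, miR-192-5p, miR-194-5p and miR-215-5p), all listed, summed to 3295 to 6949 RPM in ob/ob and 1154 to 1738 RPM in wt at 14 weeks, and to 4035 to 5597 RPM in ob/ob and 1155 to 2273 RPM in wt at 9 weeks. miR-192-5p held most of that sum, while miR-122-5p itself, like miR-184-3p, overlapped between the genotypes at 14 weeks and did not overlap at 9 weeks. By limma as deposited, 2 of the 4 were higher at 14 weeks, beside 11.7% of all tested miRNAs called higher. At 9 weeks 2 of the 4 were higher as deposited, beside 5.03%. After rescaling 2 of the 4 were higher at 14 weeks, beside 26 of all 168 tested miRNAs called higher. At 9 weeks 3 of the 4 were higher after rescaling, beside 20 of all 177. The erythroid miR-144-5p was at 11.6 to 32.4 RPM in ob/ob and 0.331 to 0.974 RPM in wt at 14 weeks, and at 14.7 to 21.7 RPM in ob/ob and 0.522 to 1.49 RPM in wt at 9 weeks. The endothelial miR-126a arms summed to 33631 to 55779 RPM in ob/ob and 10833 to 63153 RPM in wt at 14 weeks. At 9 weeks they summed to 18455 to 45923 RPM in ob/ob and 42296 to 59286 RPM in wt. The genotypes overlapped at both ages, with 0 of 2 called at 14 weeks and 1 of 2 called lower at 9 weeks as deposited (0 of 2 rescaled). At 14 weeks as deposited, miR-126a-3p differed by -3.03 ± 2.95 (SE, log2), too wide for the lack of a call to say much. miR-126a-5p differed by 0.35 ± 0.52. The lymphocyte miRNAs had 0 of 2 called at either age, with sums of 5657 to 7841 RPM in ob/ob and 5003 to 8082 RPM in wt at 14 weeks and 4854 to 6633 RPM in ob/ob and 7297.8 to 7533 RPM in wt at 9 weeks. Of the 4 tested stellate and mesenchymal miRNAs, 0 were called at 14 weeks and 2 were lower at 9 weeks as deposited, and 1 was higher at 14 weeks and 1 lower at 9 weeks after rescaling. Of the 4 tested biliary and epithelial miRNAs, 1 was higher at 14 weeks on both scales, and at 9 weeks 0 were called as deposited and 1 was higher after rescaling. The only listed neural miRNA reached at most 1.19 RPM and was not tested. Of the 5 inflammation-induced miRNAs, 2 were higher at 14 weeks on both scales, and at 9 weeks 1 was higher and 1 lower as deposited and 2 were higher after rescaling. Of the labelled cell type itself, the 3 myeloid miRNAs (miR-142a-3p, miR-142a-5p and miR-511-3p) summed to 2386 to 4026 RPM in ob/ob and 1833 to 2917 RPM in wt at 14 weeks, and to 2139 to 3272 RPM in ob/ob and 3144 to 4465 RPM in wt at 9 weeks. Of the 2 tested at each age, 0 were called at 14 weeks on either scale. At 9 weeks 1 (miR-511-3p) was lower as deposited, beside 32.4% of all tested miRNAs called lower, and 0 were called after rescaling. In these bulk samples, fewer cells of a type and less RNA per cell cannot be told apart.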

How the data were processed

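Small RNA of 15 Kupffer cell libraries was isolated with a column kit, made into libraries with the TruSeq Small RNA kit and sequenced on an Illumina HiSeq, per the labels' protocols. Tools named in the submitters' processing notes are bcl2fastq and cutadapt, and the genome builds are mm10 and GRCm38.p5. For the aligner, the counter and the table scaling, nothing is stated in the sources used here. The deposited values, 1 table per age, were taken as RPM made by the authors. That unit was inferred from the values: all values above 0 were whole multiples of 1 step within 0.1 reads in each library, and 1 over the step was read as the depth. No count model was run. The design foresaw a count test or, for normalized values, limma, and limma applied.

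log2(RPM + 0.5) was fitted in R 4.3.3 with limma 3.58.1, using its trend and robust options, and p-values were adjusted by Benjamini-Hochberg over all tested miRNAs (threshold 0.05), at each age alone and over all 15 libraries for the contrast between ages. A miRNA was tested with at least 1 RPM in as many libraries as the smallest group has. Fold changes on this scale understate those of rare miRNAs. The rescaling factors rest on miRNAs above 0 throughout that average 5 RPM or more. Rescaling over all 15 libraries was added after seeing the data. Exact permutation tests, exact intervals and correlations were computed in Python with SciPy 1.17.1. The fits were checked on simulated data.

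The 5 miRNAs, the marker lists and the list of other arms and cluster partners were chosen with earlier results of these data known. The rule for named miRNAs was the 5, the listed other arms and partners, the 3 just outside the 5 in each direction and the 3 most like each of the 5. The labels do not state whether replicates are separate animals, and p-values therefore reflect only the spread of these samples, possibly a technical one. Reads are not independent molecules, so intervals cover counting error only. Alternatives were other pseudocounts and filters, rescaling with and without a GC correction, a replicate block, single lanes and leaving out each library. Positions and host genes are from RefSeq and GENCODE vM21 (GRCm38.p6).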

Additional observations from a re-analysis of the deposited data

Results flagged for a closer look

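In groups of 4 libraries, a library that stands far from the other 3 was looked for in depth, in the sum of the listed miRNAs and in the levels and ratios described above, in 39 groups in all. Chance flags about 1 in 20 such groups. miR-532-5p in wt replicate 1 of 14 weeks, at 340.0 RPM, was far below the other 3 wt libraries of that age (589.0 to 601.9 RPM). That library also had the lowest sum and depth, and after rescaling it was at 588.7 rescaled RPM. The depth of wt replicate 1 of 9 weeks, at 22.8 M reads, was far above the other 3 wt libraries of that age. The causes were not tested.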

How the results depend on the processing

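The contrast between ages kept its sign for each of the 5 miRNAs under every alternative in which it could be fitted, with 2.14 to 3.11 for miR-188-5p, 1.35 to 2.24 for miR-138-5p, 0.64 to 1.73 for miR-149-5p, 0.29 to 1.18 for miR-532-5p and -2.22 to -1.11 for miR-184-3p. The difference at 9 weeks also kept its sign, but its size varied. It was -2.41 to -1.22 for miR-188-5p, -1.74 to -0.80 for miR-138-5p and -1.34 to -0.28 for miR-149-5p. It was -1.07 to -0.42 for miR-532-5p and 1.48 to 2.34 for miR-184-3p. The values nearest 0 came with rescaling and the GC correction for miR-188-5p, miR-138-5p and miR-149-5p, and with rescaling for miR-532-5p. At 14 weeks the difference turned sign in 3 of 18 alternatives for miR-149-5p and 3 of 17 for miR-532-5p (rescaling, lane 2 only and without wt replicate 1 of that age for both), and in 2 of 18 for miR-184-3p (lane 1 only and without wt replicate 3). The GC correction had no value for miR-532-5p.

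The number of miRNAs called at 9 weeks was 67, and 38 with rescaling, 39 with rescaling and the GC correction and 32 with the replicate block. At 14 weeks it was 26, and 48 with rescaling, 1 from lane 1 only, 51 from lane 2 only and 13 to 46 with single libraries left out (46 without wt replicate 1, 15 without wt replicate 3, 13 without ob/ob replicate 3). The contrast between ages had 0 calls, and 4 with no filter, 2 with the replicate block, 2 with lane 2 only and 0 to 3 with single libraries left out (3 without wt replicate 2, 1 without wt replicate 3 and 2 without ob/ob replicate 1, all of 14 weeks). The causes were not tested. Within an age, the ob/ob and wt libraries of the same number did not deviate together (r of -0.14 to 0.28 at 9 weeks and -0.24 to 0.20 at 14 weeks). The numbers were therefore not taken to pair samples of an age. Libraries of the same number at different ages were not compared in this way.

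miR-532-3p at 9 weeks moved to -0.40 with rescaling, 0.11 with the GC correction added and -0.97 with the replicate block (limma adjusted p = 0.0702), and at 14 weeks to -0.81 with rescaling. Its contrast between ages reversed to -0.41 with rescaling and -0.16 with the GC correction added. The highest correlations with miR-188-5p, miR-138-5p, miR-149-5p, miR-532-5p and miR-184-3p became 0.83, 0.82, 0.81, 0.75 and 0.91 with rescaling. The sum of the listed miRNAs at 14 weeks was 25603 RPM higher in ob/ob, and -21184 (without wt replicate 1) to 47630 RPM with single libraries left out. The depth difference at 14 weeks was 39.2 M reads and 27.6 to 45.6 M with single libraries left out, where exact permutation p = 0.0571 is the smallest possible. Depth limits miR-188-5p and miR-138-5p most, with 24 and 21 reads in the shallowest library.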

Other observations

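Both minor arms had at least 1 read in all 4 ob/ob libraries of 14 weeks, and of the 11 other libraries miR-184-5p was read in 6 and miR-188-3p in 5. miR-184-5p had 3, 8, 6 and 4 reads in ob/ob replicates 1 to 4, against 0, 1, 2 and 0 reads in wt replicates 1 to 4 at 14 weeks, and 1, 3 and 0 reads in ob/ob replicates 1 to 3, against 1, 3, 0 and 0 reads in wt replicates 1 to 4 at 9 weeks. miR-188-3p had 1, 6, 5 and 4 reads in ob/ob replicates 1 to 4, against 0, 5, 0 and 1 in wt replicates 1 to 4 at 14 weeks, and 5, 0 and 1 in ob/ob replicates 1 to 3, against 3, 0, 0 and 0 in wt replicates 1 to 4 at 9 weeks. The ob/ob libraries of 14 weeks were also the deepest, so the counts were not compared further.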
